A study of Drosophila melanogaster with 87 samples.

Results

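The brains examined here were dissected from control flies 6 h after a heat shock (HS), and they gave 2 of the 87 libraries of the series. They were compared with the 3 basal control libraries of the same sequencing set, and the 3 control HS and 3 control 24 h recovery libraries of that set gave the time course. The samples were chosen by their labels, with no measured value used. Brain RNA was sequenced after polyA selection with a stranded kit, and reads were counted on each gene.

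All flies were males, collected 1 to 2 days after eclosion per the labels, with an age of 6 days given for HS experiments, and carried DaGal4, a driver that is active in nearly all cells. In the control flies it expressed an RNAi transgene against mCherry, a fluorescent protein gene that flies do not have. In the 6 h recovery group, flies were heated at 38.5 °C for 30 min and then kept on regular food at 25 °C for 6 h. HS flies were taken directly after the same heat shock, 24 h recovery flies 24 h after it, and basal flies were not heated. *Mettl3* RNAi flies carried the same driver with an RNAi transgene against *Mettl3*, the m6A methyltransferase, and gave 3 libraries each at 6 h recovery and in basal conditions. Each library came from a pool of brains, so that fewer cells of a type and less RNA per cell cannot be told apart. The time of day of each dissection is not given in the sources used here, so time after HS and time of day cannot be told apart.

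Heat unfolds proteins, and heat shock factor then binds heat shock elements upstream of chaperone genes and switches them on within minutes. Cytosolic Hsp70s and small heat shock proteins hold and refold damaged proteins, and the 26S proteasome degrades those tagged with ubiquitin. Proteins that enter the secretory pathway have chaperones of their own in the endoplasmic reticulum (ER). In recovery the first chaperone transcripts are cleared while the cell restores its proteins.

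The 6 h recovery libraries held 24092448 and 19356178 counts on genes, and the basal libraries 21991927 to 25621600. The SD of the log2 difference between libraries across genes was 0.353 for the 6 h pair, 0.254 to 0.340 for basal pairs and 0.426 to 0.607 between the groups, where it was higher for 6 h replicate 1 (0.552 to 0.607) than for replicate 2 (0.426 to 0.469). The neuronal gene *elav* had 237 and 208 CPM (counts scaled by library total and TMM factor) at 6 h, against 200, 138 and 212 CPM in basal. The glial gene *repo* had 83.9 and 87.2 CPM at 6 h, against 97.3, 87.3 and 93.5 CPM in basal. Eye transcripts were present in all of these brains, since *ninaE*, the main rhodopsin of the retina, had 11820 and 13307 CPM at 6 h, against 16294, 17897 and 12404 CPM in basal. Summed levels of the marker lists were 10120 to 11080 CPM at 6 h and 9542 to 12150 CPM in basal for neurons, 4735 to 4957 CPM against 5940 to 6223 CPM for glia, 28750 to 31510 CPM against 30290 to 41740 CPM for retina, 2058 to 2394 CPM against 3339 to 4381 CPM for head fat body, and 297 to 330 CPM against 392 to 732 CPM for muscle. Hemocyte markers summed to 1040 to 1084 CPM at 6 h, against 1204 to 1474 CPM in basal, and all 7 had negative log2 fold changes, with none called.

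At 6 h recovery 692 of 10159 genes tested (6.81%) differed from basal at an adjusted p under 0.05 (edgeR quasi-likelihood test, Benjamini-Hochberg adjustment over all genes tested). Of these, 392 (3.86%) were higher and 300 (2.95%) were lower at 6 h. The rises were the larger changes, with a median size of 1.19 on the log2 scale and 215 genes past a 2-fold change, whereas the falls had a median size of 0.68 and 66 genes past 2-fold. In each of the 692 genes, the 2 recovery libraries and the 3 basal libraries did not overlap, but this was also true of many genes that were not called, since 23.4% of all genes tested lay higher and 19.3% lower in both recovery libraries than in every basal library. The median log2 fold change over all genes was 0.03. Scaling by library size alone moved that median to 0.15, and gave 793 higher and 183 lower genes.

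The count of calls depended on single libraries. Without 6 h replicate 1, 80 genes (0.775%) were higher and 43 (0.416%) lower, and without 6 h replicate 2, 334 (3.18%) were higher and 72 (0.685%) lower. Without basal replicate 1, 86 were higher and 36 lower. Without basal replicate 2 there were 613 calls and without basal replicate 3 there were 692, so group size alone does not set these counts. In the alternative fits, 382 of the 392 rises and all 300 falls kept their sign wherever the gene was tested. Most of these fits reuse the same libraries, and the groups do not overlap in any called gene. A kept sign therefore says little about stability.

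A subset of the rises came mainly from 1 library. In 63 of the 392 rises, 6 h replicate 1 was more than 2 times above 6 h replicate 2. Summed over these 63 genes, the level was 1411 and 229 CPM in the 6 h libraries, against 42.3, 34.9 and 39.5 CPM in basal. Other control libraries had 71.5 to 120 CPM after HS and 27.9 to 51.2 CPM at 24 h. In *Mettl3* RNAi the sum was 610, 51.0 and 65.7 CPM in basal and 54.0, 67.1 and 277 CPM at 6 h. It was 108, 105 and 92.2 CPM after HS there, and 31.0, 275 and 41.5 CPM at 24 h. High sums thus also occurred in single libraries of other groups, an unheated one included. Of the 15 largest rises among well-counted genes, all except the alphagamma element described below belong to this subset, and they include genes of digestive enzymes. *Bace*, an aspartic protease, had 121 and 3.59 CPM at 6 h, against 0.222, 0.218 and 0.409 CPM in basal. *CG3868* had 166.8 and 28.1 CPM at 6 h, against 0.356, 0.437 and 0.245 CPM in basal. It was called also without replicate 1, at a log2 fold change of 6.32 (adjusted p = 9.17e-06). Of the 63 genes, 17 were called without 6 h replicate 1, and so were 63 of the other 329 rises. The list of midgut markers summed to 1168 and 361 CPM at 6 h and to 763 to 995 CPM in basal. Of its 15 tested members 9 had positive log2 fold changes (median 1.14), none was called higher and 4 were called lower (*gammaTry*, *deltaTry*, *Amy-p* and *Amy-d*). Without 6 h replicate 1 none was higher and 6 were lower (median -0.54), and without 6 h replicate 2, 9 were higher and 4 lower (median 2.31). No count was seen for 2 of the 18 markers in the table in these 5 libraries. The part of gut tissue in these rises was not tested. The calls of the main gene groups below are given with and without this library.

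**Figure D1:**
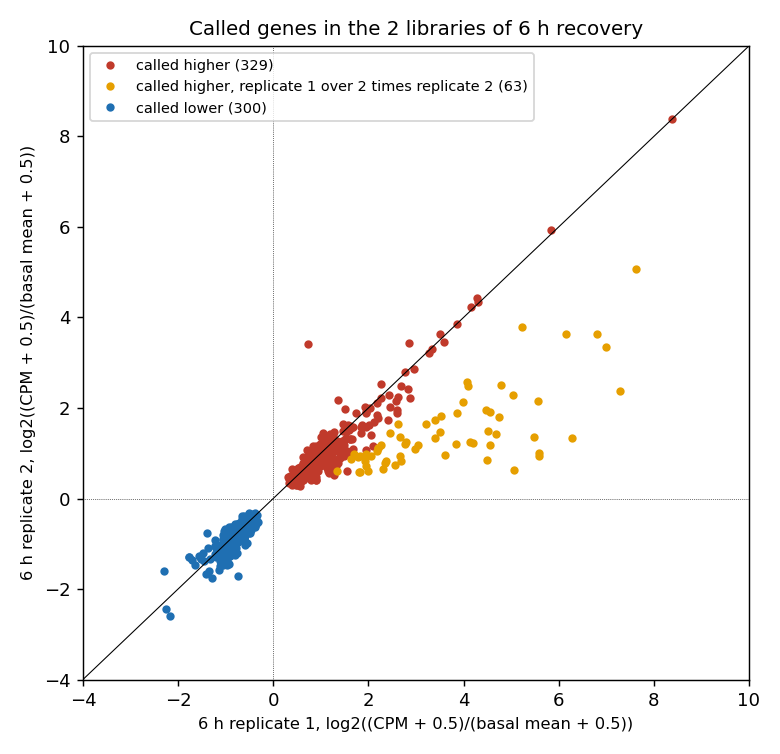
Each point is 1 of the 692 genes that differed from basal. The x axis gives its log2 ratio of 6 h replicate 1 to the basal mean and the y axis that of 6 h replicate 2 (CPM plus 0.5), and the line marks equal ratios. Most falls and most of the other 329 rises lie near the line, and the 63 rises in orange lie below it, with replicate 1 more than 2 times above replicate 2.

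The inducible Hsp70 family was still well above basal 6 h after HS. All 7 of its genes were higher, with a median log2 fold change of 3.92, against 0.03 over all genes tested, and all 7 were called also without either 6 h library. Their summed level was 653 and 688 CPM at 6 h, against 94.2, 101 and 106 CPM in basal. Over time the sum was 100.4 ± 5.96 CPM in basal (SD, n = 3), 76479 ± 2237 CPM after HS (n = 3), 670.4 ± 24.6 CPM at 6 h (n = 2) and 165 ± 14.3 CPM at 24 h (n = 3). The brains at 6 h thus held the family at well below its HS level and above the level of every 24 h and basal library.

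*Hsp70Aa*, on chromosome arm 3R, had 258 and 264 CPM at 6 h, against 12.5, 13.5 and 11.5 CPM in basal (log2 fold change 4.39, SE 0.10, adjusted p = 1.07e-06). Its HS mean was 35500 CPM, so that 0.735% of the HS level was left at 6 h. *Hsp68*, which encodes a close relative of Hsp70, had 148 and 165 CPM at 6 h, against 6.58, 7.64 and 7.24 CPM in basal (log2 fold change 4.45, SE 0.11, adjusted p = 1.07e-06), and 2.24% of its HS level was left. For both genes the recovery libraries lay close together and far from every basal library. *Hsp70Bbb* rose by a log2 fold change of 4.21 (SE 0.14), *Hsp70Ab* by 3.92 (SE 0.17) and *Hsp70Bc* by 3.72 (SE 0.10). The smallest changes were in *Hsp70Ba* and *Hsp70Bb*, of the Hsp70B cluster. *Hsp70Ba* had 52.3 and 51.6 CPM at 6 h, against 14.2, 16.7 and 19.2 CPM in basal (log2 fold change 1.64, SE 0.13). *Hsp70Bb* had 101 and 110 CPM at 6 h, against 54.4, 56.7 and 61.8 CPM in basal (log2 fold change 0.88, SE 0.09, adjusted p = 0.00483). The Hsp70 genes are near-identical copies, and how reads that fit several copies were shared among them is uncertain, so the family sum is firmer than any single copy. *Hsp68* also overlaps *CG6000* on the opposite strand.

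The promoters of genes of this family are shown because they hold the element that heat shock factor binds. A heat shock element is a run of alternating GAA and TTC units, and the 3-unit motif searched here was GAANNTTC followed after 2 bases of any kind by GAA, or TTCNNGAA followed after 2 bases by TTC. It was searched on both strands in the 250 bases upstream of the annotated 5′ end of each gene, in the RefSeq genome of Release 6, which is the dm6 assembly. Each window below is written 5′ to 3′ on the strand of its gene, ends at the base before the annotated start, and has the 3-unit motif in capitals. The windows are 3R:24057311-24057560 (minus strand) for *Hsp68*, 3R:11956545-11956794 (minus strand) for *Hsp70Aa* and 3R:12505543-12505792 (plus strand) for *Hsp70Bb*.
Hsp68: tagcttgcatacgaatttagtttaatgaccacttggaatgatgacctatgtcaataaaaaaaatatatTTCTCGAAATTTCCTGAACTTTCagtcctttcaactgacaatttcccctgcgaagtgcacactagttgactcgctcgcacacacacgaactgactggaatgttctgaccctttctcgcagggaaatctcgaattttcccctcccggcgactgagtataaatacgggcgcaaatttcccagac
Hsp70Aa: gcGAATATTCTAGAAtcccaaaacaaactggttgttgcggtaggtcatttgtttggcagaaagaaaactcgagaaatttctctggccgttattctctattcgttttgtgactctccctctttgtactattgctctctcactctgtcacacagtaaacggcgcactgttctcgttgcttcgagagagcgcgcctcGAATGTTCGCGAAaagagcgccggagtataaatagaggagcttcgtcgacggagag
Hsp70Bb: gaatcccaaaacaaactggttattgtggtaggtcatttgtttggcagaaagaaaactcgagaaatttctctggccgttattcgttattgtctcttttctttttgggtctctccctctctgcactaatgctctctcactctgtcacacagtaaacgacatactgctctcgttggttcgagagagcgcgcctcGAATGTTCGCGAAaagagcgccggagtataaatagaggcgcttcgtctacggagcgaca
Positions are the number of bases between the last base of a match and the annotated start. In *Hsp68*, 3 overlapping matches end 169, 164 and 159 bases before the start and form 1 uninterrupted run. *Hsp70Aa* has 2 separate matches, which end 235 and 43 bases before the start, and *Hsp70Bb* has 1, which ends 46 bases before it.

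The 3-unit motif is rare among fly promoters. It is in 58 of 16773 promoters of this length (0.346%) and in 39 of the 9592 whose genes were tested here (0.407%). Among the genes that were higher at 6 h it is in 10 of 374 promoters (2.67%), which are those of the 7 Hsp70 family genes, *GstD10*, *lncRNA:CR44357* and *mesh*. It is in none of the 266 promoters of genes that were lower. The 2-unit motif, GAANNTTC or TTCNNGAA, which is also part of each 3-unit match, is common. It is in 13.2% of all promoters, 14.4% of those of genes that were higher and 14.7% of those of genes that were lower.

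Small heat shock proteins bind unfolding proteins without ATP, and those that passed the test were at 3.63% of their HS level or more at 6 h, against 0.493 to 1.15% for the Hsp70 genes and 2.24% for *Hsp68*. Of 10 tested members 4 were higher and none was lower, the 4 were called also without either 6 h library, and the list median was 0.04. *Hsp26* had 370 and 393 CPM at 6 h, against 5.74, 7.09 and 5.03 CPM in basal (log2 fold change 6.00, SE 0.15, adjusted p = 1.33e-06), and its level at 6 h was 10.4% of that after HS. *Hsp23* had 610 and 643 CPM at 6 h, against 30.8, 37.9 and 32.0 CPM in basal (log2 fold change 4.23, SE 0.13, adjusted p = 2.64e-06), which was 38.01% of its HS level. *Hsp27* had 74.0 and 66.6 CPM at 6 h, against 5.25, 6.33 and 5.36 CPM in basal (log2 fold change 3.64, SE 0.11), which was 3.63% of its HS level. In all 3 genes both recovery libraries lay above every basal library by several fold. *Hsp27* overlaps *CR43483* on the opposite strand.

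*Hsp67Bc*, a partner of the exchange factor Starvin in clearing misfolded proteins, was higher at 6 h than directly after HS. It had 151.5 and 141.5 CPM at 6 h, against 66.3, 52.8 and 63.5 CPM after HS (log2 fold change 1.20, adjusted p = 3.89e-06). Its basal level was 18.3, 19.8 and 19.1 CPM (6 h over basal: log2 fold change 2.95, SE 0.09), and it was 17.8, 17.0 and 16.6 CPM at 24 h. The 6 h libraries therefore held its highest level of the time course, and its 24 h libraries were below every basal library. The other 6 tested members did not pass the test, with log2 fold changes of -0.97 (*CG4461*) to 0.18 (*CG14207*). *Hsp22* has no count in any of the 87 libraries. It overlaps *CG4456* on the same strand, and the counting mode left out reads that fall on 2 genes, so its level was not measured.

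The promoters of *Hsp26*, at 3L:9377428-9377677 (minus strand), and of *Hsp23*, at 3L:9381632-9381881 (plus strand), have no 3-unit match in this window, and each has 2 matches to the 2-unit motif. They are shown beside those of the Hsp70 family, with the 2-unit motif in capitals.
Hsp26: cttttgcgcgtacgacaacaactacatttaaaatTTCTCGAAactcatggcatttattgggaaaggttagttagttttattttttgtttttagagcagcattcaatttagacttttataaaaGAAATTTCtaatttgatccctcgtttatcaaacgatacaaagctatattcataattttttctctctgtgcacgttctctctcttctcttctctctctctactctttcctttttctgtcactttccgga
Hsp23: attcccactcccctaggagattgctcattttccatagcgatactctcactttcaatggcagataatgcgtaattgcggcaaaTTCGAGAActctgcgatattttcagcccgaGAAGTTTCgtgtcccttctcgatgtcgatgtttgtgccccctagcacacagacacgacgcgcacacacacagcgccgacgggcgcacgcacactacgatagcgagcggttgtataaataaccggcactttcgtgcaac
The matches end 208 and 120 bases before the annotated start of *Hsp26* and 160 and 130 bases before that of *Hsp23*. The 2-unit motif is in 4 of the 10 promoters of tested small heat shock protein genes. *Hsp67Bc* has 1 match to it in this window. *Hsp27*, and outside this family *Hsp83*, *DnaJ-1* and *stv*, have no match to either motif there.

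The noncoding transcript of the alphagamma element, *lncRNA:alphagamma-element:CR32865*, had the largest rise of all well-counted genes. It lies at 3R:12475336-12478267 on the minus strand among the copies of *Hsp70B*. The 250 bases upstream of its annotated start have no match to the 3-unit or the 2-unit motif. It had 193 and 191 CPM at 6 h, against 0.0445, 0.146 and 0.0409 CPM in basal (log2 fold change 11.14, SE 0.20, adjusted p = 3.83e-07). Pooled over libraries it had 9475 counts at 6 h and 6 in basal, a ratio of 2387 (95% interval 1096 to 6507, which covers counting error only). After HS it had 586.5, 585.9 and 618 CPM, and at 24 h 5.50, 1.55 and 1.51 CPM. Its level at 6 h was 32.2% of that after HS. It overlaps annotated transposons, so its reads may not all be its own.

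**Figure D2:**
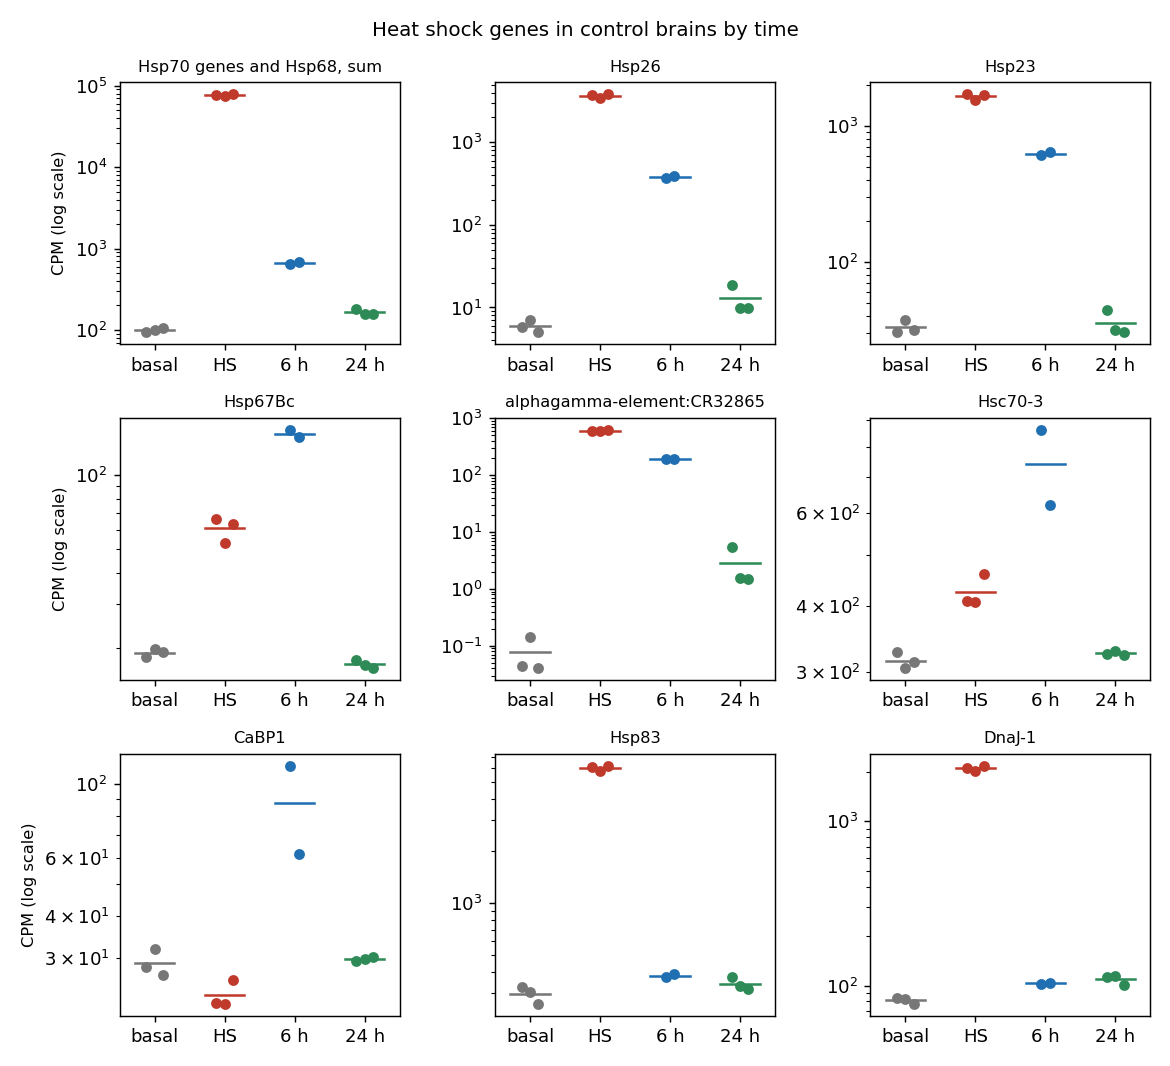
CPM on a log axis in each control library in basal, after HS, at 6 h and at 24 h, with lines at group means, for 9 transcripts or sums. The Hsp70 sum, Hsp26, Hsp23 and the alphagamma element are below HS and above basal at 6 h, Hsp67Bc, Hsc70-3 and CaBP1 have their highest points at 6 h, and Hsp83 and DnaJ-1 are near basal at 6 h.

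Other genes that heat shock factor induces were closer to basal. The 6 h mean was 1.28 times the basal mean for *Hsp83*, 1.27 for *DnaJ-1* and 1.46 for *stv*. *Hsp83*, which encodes cytosolic Hsp90, had a mean of 380 ± 8.56 CPM at 6 h (SD, n = 2) and 296 ± 32.3 CPM in basal (n = 3), and did not pass the test (log2 fold change 0.36, adjusted p = 0.121). It was at 6.28% of its HS level. *DnaJ-1*, the main J-domain partner of Hsp70, had 102.8 and 103.8 CPM at 6 h, against 83.9, 83.1 and 77.4 CPM in basal (log2 fold change 0.35, adjusted p = 0.0508). Its libraries did not overlap, and its level was 4.89% of that after HS. *stv*, which encodes Starvin, had 153 and 132 CPM at 6 h, against 103, 95.6 and 94.2 CPM in basal, and was higher (log2 fold change 0.55, adjusted p = 0.0232), but not without 6 h replicate 1 (adjusted p = 0.247). *Hsf*, the gene of heat shock factor itself, had 63.3 and 59.0 CPM at 6 h, against 62.8, 54.8 and 63.3 CPM in basal, with the groups overlapping. Of 9 genes of Hsp90 and its cochaperones, 1 was higher, the ER member *Gp93*, and of 15 J-domain proteins and exchange factors 3 were, *stv*, *P58IPK* and *Sil1*, of which *P58IPK* was called without 6 h replicate 1. The polyubiquitin gene *Ubi-p5E* was lower, with 547 and 602 CPM at 6 h, against 786, 811 and 782 CPM in basal (log2 fold change -0.46, adjusted p = 0.0497), and was not called without 6 h replicate 1. The list of other classical heat shock genes had no other call.

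Part of the chaperones of the ER rose. Of 22 genes of ER folding and the unfolded protein response, 7 were higher and none was lower, and 19 had positive log2 fold changes (median 0.27). *Hsc70-3*, which encodes BiP, the Hsp70 of the ER, had 861 and 621 CPM at 6 h, against 327, 305 and 313 CPM in basal (log2 fold change 1.24, SE 0.15, adjusted p = 0.00667). After HS it had 409, 407 and 460 CPM, so that the recovery libraries lay above the HS libraries too. *Gp93*, the Hsp90 of the ER, had 310.6 and 209.5 CPM at 6 h, against 106, 106 and 98.5 CPM in basal (log2 fold change 1.33, SE 0.16, adjusted p = 0.00667). *CaBP1*, a disulfide isomerase, had 113 and 61.4 CPM at 6 h, against 28.1, 32.0 and 26.6 CPM in basal (log2 fold change 1.60, SE 0.23, adjusted p = 0.012). In these 3 genes replicate 1 was the higher of the recovery libraries, and both were above every basal library.

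*P58IPK*, a J-domain partner of BiP, had 90.1 and 60.3 CPM at 6 h, against 34.7, 35.1 and 34.1 CPM in basal (log2 fold change 1.13). *Sil1*, an exchange factor of BiP, had 53.4 and 27.4 CPM at 6 h, against 15.8, 19.8 and 17.8 CPM in basal (log2 fold change 1.19). *Calr*, which encodes the lectin chaperone calreticulin, had 311 and 287 CPM at 6 h, against 178, 198 and 175 CPM in basal (log2 fold change 0.71). *Pdi* had 357 and 318 CPM at 6 h, against 241, 259 and 223 CPM in basal (log2 fold change 0.49). Without 6 h replicate 1, *Hsc70-3*, *Gp93*, *CaBP1* and *P58IPK* were called and the other 3 were not, and without basal replicate 1, 2 were called. The sensors and transcription factors of the response did not pass the test, with log2 fold changes of -0.08 for *Xbp1*, -0.15 for *crc* (Atf4), -0.07 for *Atf6*, 0.15 for *PEK* and 0.10 for *Ire1*. Splicing of *Xbp1* cannot be read from counts per gene. *Gp93* overlaps *CG4951*, and *P58IPK* overlaps *bocks*.

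The subunits of the 26S proteasome rose together by a small amount. All 32 had positive log2 fold changes, between 0.32 and 0.66 (median 0.51). In all 32 both recovery libraries were above every basal library, against 23.4% of all genes tested. Of these 26 passed the test and none was lower. Their summed level was 1.439 and 1.369 times the basal mean at 6 h, against 0.997, 1.06 and 0.940 in the basal libraries. *Rpn2*, a scaffold subunit of the regulatory particle, had 119 and 112 CPM at 6 h, against 75.8, 76.0 and 71.8 CPM in basal (log2 fold change 0.64, adjusted p = 0.00881). *Prosalpha3*, a subunit of the core, had 50.8 and 51.4 CPM at 6 h, against 33.0, 35.6 and 28.9 CPM in basal (log2 fold change 0.66, adjusted p = 0.0155). *Rpn1* had 122 and 114 CPM at 6 h, against 82.3, 78.6 and 80.4 CPM in basal (log2 fold change 0.56, adjusted p = 0.0131). The size of the change was close to the same without 6 h replicate 1 (median 0.48), but then none of the 32 was called, and 5 were called without 6 h replicate 2 and none without basal replicate 1.

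The cytosolic chaperonin CCT, which folds actin and tubulin, had 6 of its list's 14 members higher, and the list, which includes prefoldin, had a median of 0.38. *CCT1* had 46.6 and 44.9 CPM at 6 h, against 24.9, 27.4 and 26.8 CPM in basal (log2 fold change 0.80, adjusted p = 0.0049), and it was the one member called without 6 h replicate 1. *CCT5* had 40.8 and 38.03 CPM at 6 h, against 21.4, 26.6 and 19.8 CPM in basal (log2 fold change 0.81). *CCT3*, *CCT4*, *CCT7* and *CCT8* rose by log2 fold changes of 0.61, 0.40, 0.46 and 0.51. The prefoldin members, which hand substrates to CCT, did not pass the test and lay between -0.14 and 0.08. The selective autophagy receptor *ref(2)P* was higher, with 289 and 270 CPM at 6 h, against 198, 188 and 191 CPM in basal (log2 fold change 0.55), and was the one autophagy gene of 22 to pass. Of 20 cytosolic aminoacyl-tRNA synthetases, 3 were higher, *ValRS* (0.45), *GluProRS* (0.48) and *TrpRS* (0.42), and of 25 ribosome biogenesis genes 1 was, *Surf6* (0.76). Over all genes tested 3.86% were higher, and the single calls among 22 autophagy and 25 ribosome biogenesis genes were near that share. None of these 5 single genes was called without 6 h replicate 1.

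**Figure D3:**
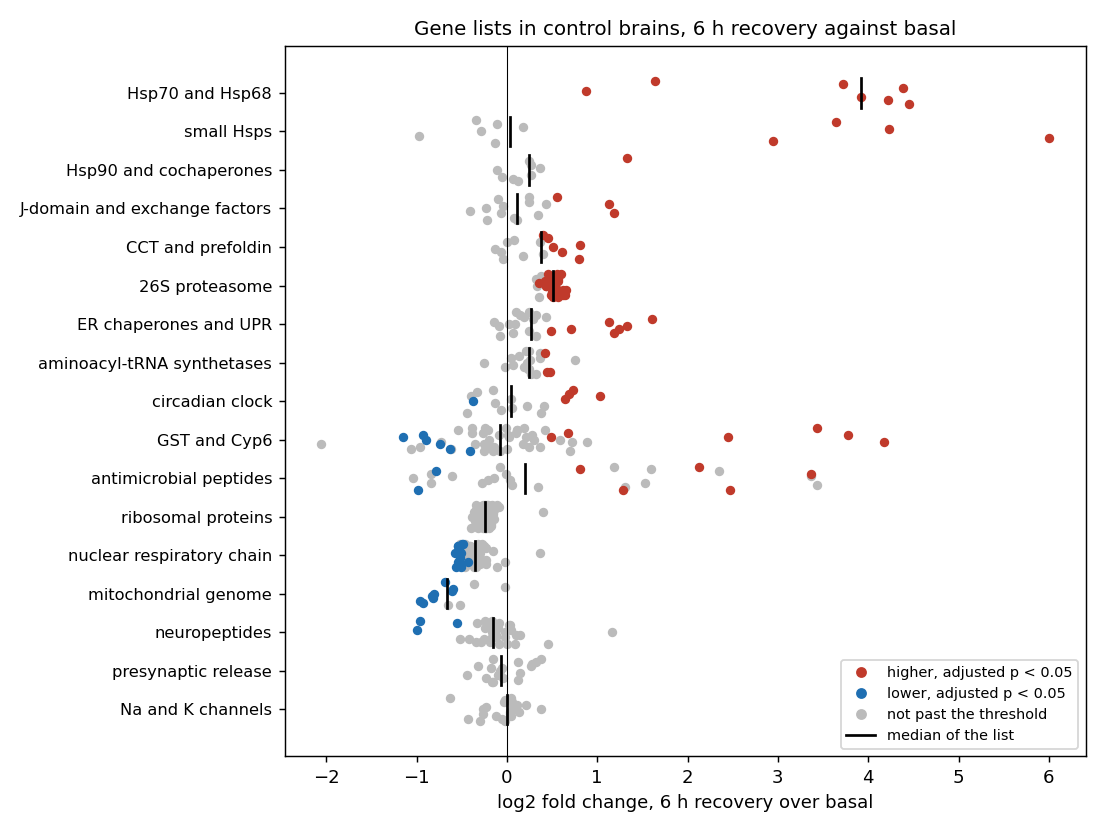
Each point is the log2 fold change of 1 gene, 6 h over basal, in 17 gene lists, with list medians as bars and colours for genes past an adjusted p of 0.05. The 7 Hsp70 family genes lie between 0.88 and 4.45, the 32 proteasome subunits in a narrow band between 0.32 and 0.66, and the respiratory chain and mitochondrial genome lists mostly below 0.

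Of 12 tested transcripts of the mitochondrial genome, 8 were lower and all 12 had negative log2 fold changes (median -0.67). Their summed level was 0.614 and 0.651 times the basal mean at 6 h. *mt:ND1*, a subunit of complex I, had 702 and 522 CPM at 6 h, against 1199, 1237 and 1154 CPM in basal (log2 fold change -0.96, adjusted p = 0.0155). *mt:CoII*, a subunit of cytochrome c oxidase, had 1432 and 1442 CPM at 6 h, against 2437, 2816 and 2391 CPM in basal (log2 fold change -0.82). The other 6 fell by 0.60 to 0.93 on the log2 scale. Without 6 h replicate 1 the median was -0.82 and 3 were called, and without basal replicate 1 none was. Some of these genes overlap, such as *mt:CoIII* with *mt:ATPase6* and *mt:ND4* with *mt:ND4L*.

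Of 66 tested nuclear genes of the respiratory chain 13 were lower and none was higher, and 65 had negative log2 fold changes (median -0.35). In 63 of them both recovery libraries were below every basal library, against 19.3% of all genes tested. *ATPsynB*, a subunit of ATP synthase, had 279 and 286 CPM at 6 h, against 415, 467 and 379 CPM in basal (log2 fold change -0.57, adjusted p = 0.036). The oxidase subunits *COX7A* and *COX4* fell by 0.57 and 0.51. None was called without 6 h replicate 1 (median -0.30) or without 6 h replicate 2 (median -0.43), and with scaling by library size 1 was. The 84 genes of cytosolic ribosomal proteins gave no call, with 83 negative log2 fold changes (median -0.24), and neither did the 72 of mitochondrial ribosomal proteins (median -0.08).

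**Figure D4:**
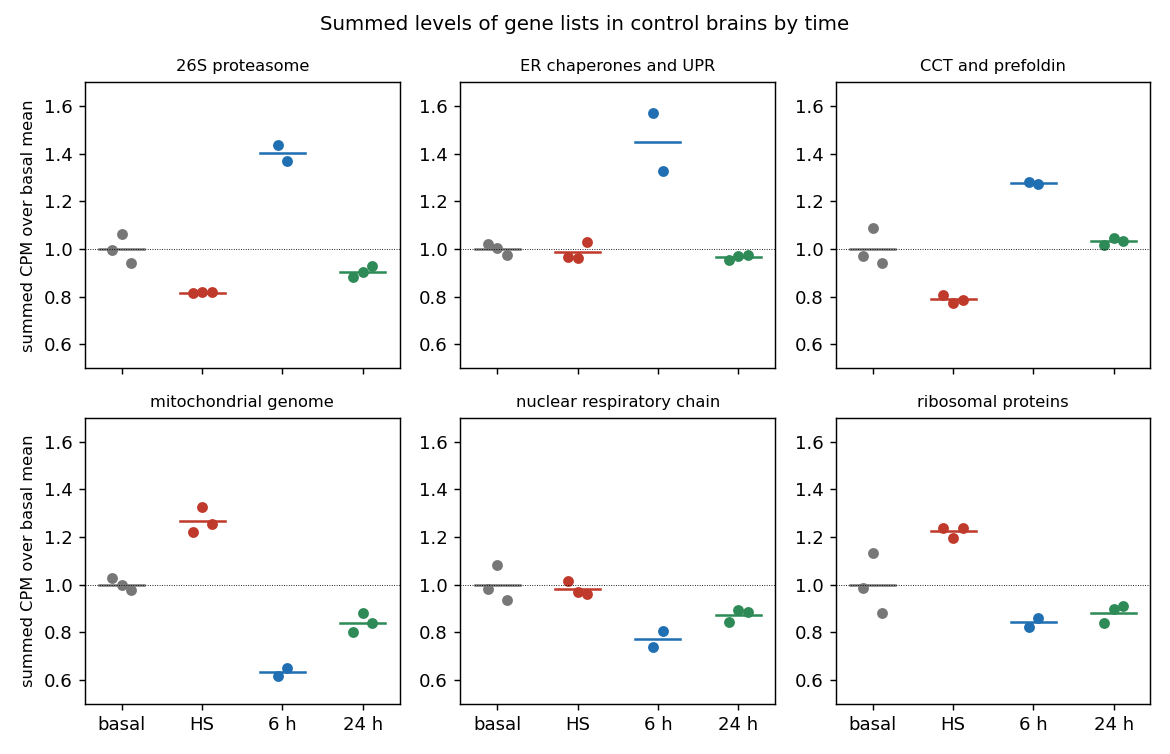
Summed CPM of 6 gene lists in each control library over the mean of the basal libraries, in basal, after HS, at 6 h and at 24 h, with lines at group means. The proteasome, ER and CCT sums have their highest points at 6 h, and the mitochondrial genome and respiratory chain sums their lowest.

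Genes of purine and folate metabolism were among the largest falls. *Prat2*, which encodes the first enzyme of purine synthesis, had 36.3 and 40.9 CPM at 6 h, against 118, 118 and 106 CPM in basal (log2 fold change -1.56, SE 0.10, adjusted p = 0.000489). *CG16758*, a predicted purine nucleoside phosphorylase, had 89.8 and 102 CPM at 6 h, against 249, 273 and 252 CPM in basal (log2 fold change -1.42, adjusted p = 0.000943). Both were called without either 6 h library. A list of 15 tested genes of one-carbon and purine synthesis was written after these calls were seen. It includes *Prat2* and is therefore a description. Of its genes 9 were lower (median -0.74), against 2.95% of all genes tested. *Shmt*, which feeds carbon from serine into folate, had 58.8 and 59.8 CPM at 6 h, against 117, 120 and 96.7 CPM in basal (log2 fold change -0.90). *pug*, which encodes an enzyme of the folate cycle, had 72.3 and 68.4 CPM at 6 h, against 145, 121 and 107 CPM in basal (log2 fold change -0.82). Without 6 h replicate 1 the median was -0.86 and 2 were called.

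*Lsp2*, a storage protein of the fat body, had 501 and 497 CPM at 6 h, against 1407, 1422 and 935 CPM in basal (log2 fold change -1.32, adjusted p = 0.0131). *Lsp1beta* and *Obp99b* fell by 1.42 and 1.07. *Lsp2* and *Obp99b* are 2 of the 7 tested markers of head fat body, of which 6 had both recovery libraries below basal, against 19.3% of all genes tested. So did 9 of 11 glial, 6 of 7 hemocyte, 7 of 12 muscle, 5 of 13 retinal and 2 of 12 neuronal markers. The part of fat body tissue in the falls of *Lsp2*, *Lsp1beta* and *Obp99b* was not tested. *Amy-p*, an amylase of the gut, had 169 and 140 CPM at 6 h, against 448, 341 and 560 CPM in basal (log2 fold change -1.54). Its level varied widely among other control libraries, with 467, 34.2 and 156 CPM after HS and 92.3, 287 and 24.0 CPM at 24 h. The 6 h levels lie within that spread. The trypsin gene *gammaTry* had the largest fall among well-counted genes, with 1.26 and 0.807 CPM at 6 h, against 8.23, 6.55 and 7.61 CPM in basal (log2 fold change -2.82, adjusted p = 0.00171), and its neighbour *CG30025* fell by 2.76. Trypsins of this cluster are near copies, so reads may be shared among them. Like *Amy-p*, both were low in each recovery library, replicate 1 included. *Obp19d*, an odorant binding protein gene, had 9.28 and 7.67 CPM at 6 h, against 18.6, 24.0 and 19.5 CPM in basal (log2 fold change -1.28). *Treh*, which encodes trehalase, the enzyme that splits the blood sugar of flies, was higher, with 473 and 492 CPM at 6 h, against 371, 338 and 362 CPM in basal (log2 fold change 0.44). Of 15 carbohydrate and lipid reserve genes 1 was higher and 4 lower, and without 6 h replicate 1 none was higher and 3 were lower. Of 13 glycolysis genes 1 was lower, *Hex-C* (-0.66), and none was without 6 h replicate 1.

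Neuronal gene groups showed few changes. Of 34 tested neuropeptide genes 3 were lower and none was higher (median -0.16), and *Nplp3* was the one called without 6 h replicate 1. *Nplp3* had 26.8 and 29.4 CPM at 6 h, against 58.8, 56.0 and 53.5 CPM in basal (log2 fold change -0.99, adjusted p = 0.00271), and *Nplp2* had 690 and 737 CPM at 6 h, against 1558, 1516 and 1110 CPM in basal (log2 fold change -0.96). *CCHa2*, which is made in fat body as well as brain, fell by 0.55. None of 18 genes of presynaptic release (median -0.07) and none of 22 voltage-gated sodium and potassium channel genes (median 0.00) passed the test, nor did any of the 12 neuronal, 11 glial and 13 retinal markers. The retinal markers had a median of -0.30 and the glial ones of -0.18.

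The circadian clock list had 4 of 16 genes higher and 1 lower, and without 6 h replicate 1 *tim*, *per* and *Usp8* were called. *tim*, which with *per* makes the repressor of the clock, had 211 and 223 CPM at 6 h, against 109.8, 94.3 and 117 CPM in basal (log2 fold change 1.03, adjusted p = 0.00515). *per* had 69.6 and 71.2 CPM at 6 h, against 43.5, 44.9 and 43.3 CPM in basal (log2 fold change 0.69, adjusted p = 0.00585). *vri*, a repressor of *Clk*, had 60.9 and 64.4 CPM at 6 h, against 37.2, 40.5 and 42.9 CPM in basal (log2 fold change 0.64). These 3 transcripts are known to cycle together in flies and peak around dusk. *Usp8* was also higher (0.73), and *Pdfr*, the receptor of the clock neuropeptide Pdf, was lower (-0.38). *Clk* (-0.44, adjusted p = 0.14) and *cry* (-0.40, adjusted p = 0.0523), which cycle in the opposite phase, did not pass the test. Against all 6 basal libraries of both sequencing sets the log2 fold change of *vri* was -0.01. Time after HS and time of day cannot be told apart in these calls.

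Detoxification genes moved both ways. Of 51 tested glutathione S-transferases and Cyp6 enzymes, 6 were higher and 6 lower (median -0.08, and 0.04 with scaling by library size). *GstD2* had 47.6 and 15.3 CPM at 6 h, against 2.22, 2.33 and 2.37 CPM in basal (log2 fold change 3.77, adjusted p = 0.00611), and was called without 6 h replicate 1 at 2.73. Its neighbours *GstD10*, *GstD5* and *GstD8* rose by 4.18, 3.43 and 2.45, and *GstD1* by 0.68. *GstD2*, *GstD10* and *GstD5* are among the 63 rises that were more than 2 times higher in 6 h replicate 1. Without that library *GstD2* and *GstD10* were the 2 members called higher, and 3 were lower. *Cyp6d5* had 51.1 and 44.5 CPM at 6 h, against 94.0, 88.7 and 90.8 CPM in basal (log2 fold change -0.93). A motif of the antioxidant response, TGACNNNGC on either strand, is in 24 of the 374 promoters of genes that were higher (6.42%) and in 6.31% of all promoters. Of 17 antioxidant genes 1 was higher, against 3.86% of all genes tested. This was *Jafrac2* (0.69), which was not called without 6 h replicate 1.

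Immune genes had few stable calls. Of 26 tested antimicrobial peptide and Bomanin genes 5 were higher and 2 lower, and 1 was called without 6 h replicate 1. *Drs*, the antifungal peptide drosomycin, had 31.7 and 21.4 CPM at 6 h, against 9.52, 9.46 and 13.9 CPM in basal (log2 fold change 1.28, adjusted p = 0.0184). *AttA*, *AttB*, *BomBc1* and *BomS1* rose by 2.47, 3.37, 2.12 and 0.80 against basal replicates 1 to 3, but had negative log2 fold changes against all 6 basal libraries. No early-response transcription factor (of 12), insulin pathway gene (of 17), SR splicing factor (of 15), JAK/STAT gene (of 6), MAPK pathway gene (of 28) or translation factor (of 43) passed the test. Of 18 DNA damage and apoptosis genes 1 was higher, *Irbp* (0.82), which encodes the Ku70 protein of DNA end joining and was not called without 6 h replicate 1. Over all genes tested 3.86% were higher, so 1 of these 18 is near that share. Of 4 tested Turandot genes 3 had positive log2 fold changes (median 0.96). *TotX* was the one Turandot gene called, and was lower (-1.51).

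Of 9 writers and readers of m6A, 1 changed, against 6.81% of all genes tested. *nito*, which encodes a subunit of the methyltransferase complex, had 58.8 and 51.98 CPM at 6 h, against 30.4, 26.1 and 30.4 CPM in basal (log2 fold change 0.94, adjusted p = 0.00542). It was called without either 6 h library, and it overlaps *CG14763* and *CG8726*. *Mettl3* had 3.45 and 4.26 CPM at 6 h, against 2.98, 3.06 and 2.90 CPM in basal (log2 fold change 0.37, adjusted p = 0.269). *Ythdc1*, the nuclear reader, had 186 and 193 CPM at 6 h, against 200, 206 and 216 CPM in basal (log2 fold change -0.13, adjusted p = 0.471).

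Head libraries in basal conditions gave a list of genes with a lower ratio of m6A immunoprecipitate to input in *Mettl3* RNAi than in control. The ratio was tested with edgeR in 8 libraries with the SYS antibody. It uses counts over whole genes, so it does not place m6A within a transcript. For the *Mettl3* RNAi immunoprecipitates the titles name this antibody, but another label field gives none. Of 10397 genes tested there 1084 differed (10.4%), 146 with a higher ratio (1.4%) and 938 with a lower one (9.02%). Of the 938, 926 were tested in brains, and 5 were higher (0.54%) and 20 lower (2.16%) at 6 h, below the shares of all genes, with a median log2 fold change of -0.005. The 5 that were higher were *Hsp68*, *Hsp27*, *stv*, *CG4374* and *CG31324*. Of 143 tested genes with a higher ratio none was higher and 13 were lower (9.09%).

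Between HS and 6 h most of the expressed genes moved. Of 10382 genes tested 5685 (54.8%) differed between 6 h and HS, 3049 (29.4%) higher and 2636 (25.4%) lower at 6 h. All 7 Hsp70 family genes were lower than after HS (median -7.16), with the largest fall in *Hsp70Bc* (-7.73, adjusted p = 2.1e-10). All 32 proteasome subunits (median 0.70), 12 of 14 CCT and prefoldin genes (median 0.64), 15 of 22 ER genes (median 0.46) and 17 of 20 aminoacyl-tRNA synthetases (median 0.49) were higher at 6 h than after HS. The proteasome sum was 1.439 and 1.369 times the basal mean at 6 h, against 0.815 to 0.819 after HS. In the opposite direction, 82 of 84 ribosomal protein genes (median -0.61), 58 of 66 respiratory chain genes (median -0.35) and 10 of 12 mitochondrial transcripts (median -1.06) were lower at 6 h than after HS. With scaling by library size alone 6628 genes were higher and 453 lower, so the split between directions rests on the TMM factors, which were 1.12 and 1.15 at 6 h and 0.802 to 0.826 after HS. The median log2 fold change over all genes was 0.02 with TMM and 0.56 with library size. The sizes and directions of the list medians given here therefore also depend on the scaling.

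Between 6 h and 24 h, 1075 of 10382 genes (10.4%) differed, 553 (5.33%) higher and 522 (5.03%) lower at 6 h. All 7 Hsp70 family genes were higher at 6 h than at 24 h (median 2.30), as were all 32 proteasome subunits (median 0.60), 12 of 22 ER genes and 5 of 14 CCT and prefoldin genes. *Hsc70-3* had 861 and 621 CPM at 6 h, against 323 to 328 CPM at 24 h. *tim* had 211 and 223 CPM at 6 h, against 83.6, 86.6 and 100 CPM at 24 h. Mitochondrial transcripts were lower at 6 h than at 24 h in 9 of 12 (median -0.49) and respiratory chain genes in 20 of 66 (median -0.24). The 6 h libraries were thus apart from both the HS and the 24 h libraries in these groups, and their comparisons share the 6 h libraries. Among other genes the largest falls were *phu* (-2.28), *asRNA:CR43464* (-1.87), *Achl* (-1.65), *CG17684* (-1.44) and *DIP-lambda* (-1.26).

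The second sequencing set holds control HS and basal libraries whose HS libraries enter none of the comparisons above, while its basal libraries were used there as an alternative. In it 4125 of 10317 genes differed between HS and basal (40%), 1547 higher (15%) and 2578 lower (25%). Of 309 genes higher at 6 h and tested in both, 61 were higher after HS in that set (19.7%, and 4.4% of its 1385 rises), against 14% of all genes tested in both, and 67 were lower (21.7%, and 2.61% of its 2564 falls), against 26%. Of 291 genes lower at 6 h, 48 were higher after HS (16.5%, and 3.47% of its rises) and 11 lower (3.78%, and 0.429% of its falls). The shared rises include the Hsp70 family, whose 7 genes were all higher after HS in that set (median 11.63).

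*Mettl3* RNAi brains at 6 h were set beside the control brains. The knockdown is seen in the target, with 0.746, 1.25 and 1.14 CPM of *Mettl3* in *Mettl3* RNAi brains at 6 h and 0.709, 0.636 and 0.756 CPM in *Mettl3* RNAi basal brains, against 3.45 and 4.26 CPM in control brains at 6 h and 2.98, 3.06 and 2.90 CPM in control basal brains. The basal libraries of *Mettl3* RNAi differed widely among themselves. Their Hsp70 family sum was 1668, 248 and 819 CPM, their proteasome sum 2.16, 0.96 and 2.03 times the control basal mean, and *tim* 336, 87.0 and 402 CPM, so replicates 1 and 3 stood apart from replicate 2 and from all control basal libraries. In *Mettl3* RNAi 206 of 10089 genes (2.04%) differed between 6 h and basal, 90 higher (0.892%) and 116 lower (1.15%). Without *Mettl3* RNAi basal replicate 2, 1018 were higher (9.85%) and 1641 lower (15.9%).

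Part of the control response was also called in *Mettl3* RNAi. Of 352 control rises tested in both genotypes 61 were higher (17.3%, and 69.3% of the 88 *Mettl3* RNAi rises), against 0.889% of all genes tested in both. Of 295 control falls 41 were lower (13.9%, and 35.3% of the 116 *Mettl3* RNAi falls), against 1.17%, and none was called in the opposite direction. Without *Mettl3* RNAi basal replicate 2, 134 of 375 control rises were shared (35.7%), against 10.1% of all genes tested in both. Of 298 control falls 117 were shared (39.3%), against 15.4%. Called in the opposite direction were 50 of these rises (13.3%, against 15.4%) and 25 of these falls (8.39%, against 10.1%). The alphagamma element, *lncRNA:alphagamma-element:CR32865*, had 199, 172 and 127 CPM in *Mettl3* RNAi at 6 h, against 2.79, 0.106 and 1.10 CPM in its basal libraries (log2 fold change 7.01, adjusted p = 0.0286). *Hsp67Bc* had 79.0, 82.9 and 69.1 CPM in *Mettl3* RNAi at 6 h, against 18.1, 13.5 and 18.1 CPM in basal (adjusted p = 0.00773). Both transcripts were well above basal in each genotype. *Hsp23* had 564, 573 and 386 CPM in *Mettl3* RNAi at 6 h, against 89.1, 35.9 and 87.6 CPM in its basal libraries, and the groups did not overlap. *nito* had 41.2, 40.9 and 41.7 CPM at 6 h, against 28.9, 27.8 and 29.4 CPM in *Mettl3* RNAi basal (log2 fold change 0.53, adjusted p = 0.0255). *CCT1*, *Drs*, *mt:ND1*, *mt:ND4*, *ATPsynB*, *COX7A* and *Cyp6d5* also changed in the same direction in both.

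For the groups whose basal level was uneven in *Mettl3* RNAi, no such call was made. The Hsp70 family sum was 449, 381 and 351 CPM in *Mettl3* RNAi at 6 h, against 1668, 248 and 819 CPM in its basal libraries, and none of the 7 genes and none of the 32 proteasome subunits passed the test (proteasome median -0.38). Without *Mettl3* RNAi basal replicate 2, 6 of the 7 Hsp70 family genes (median -2.06) and all 32 proteasome subunits (median -0.67) were called lower at 6 h than in the remaining basal libraries. Set beside the control sums of 653 and 688 CPM at 6 h, the Hsp70 sums of *Mettl3* RNAi at 6 h were lower, a difference that was not tested. The test of the difference between genotypes in the change from basal to 6 h called none of 10607 genes (0%) with edgeR, although 1105 had an unadjusted p under 0.05, and DESeq2 called 66. Without *Mettl3* RNAi basal replicate 2 edgeR called 881. No gene's 6 h response can therefore be said to differ between the genotypes in the edgeR fit of all libraries.

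**Figure D5:**
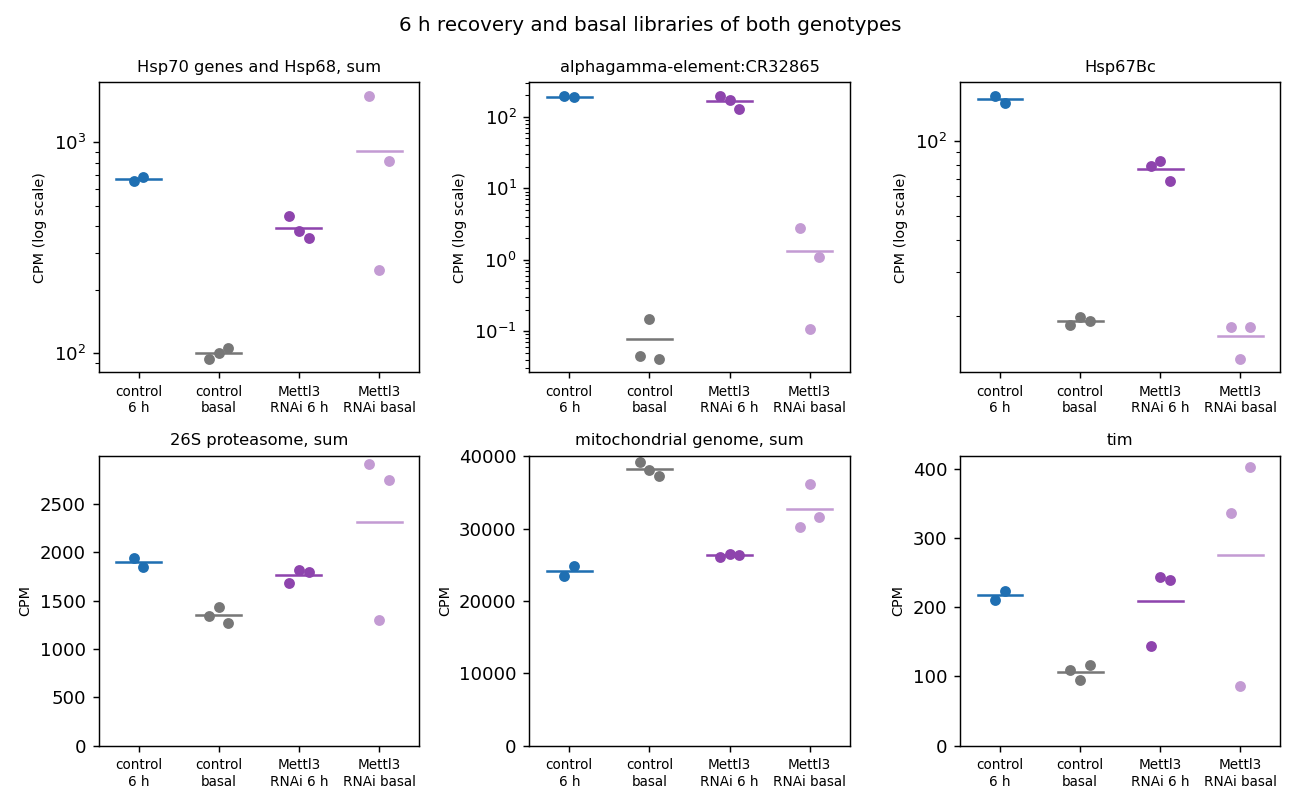
CPM of each library at 6 h and in basal for control and *Mettl3* RNAi brains, with lines at group means and log axes in the upper row. The alphagamma element and Hsp67Bc are above basal in both genotypes, and for the Hsp70 sum, the proteasome sum and tim the *Mettl3* RNAi basal libraries are spread more widely than those of any other group.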

How the data were processed

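The deposited values are raw read counts per gene, in 1 table of 17562 genes and 87 libraries. The authors trimmed the reads with Trim Galore, mapped them with STAR 2.7.3a to dm6, dropped reads that were unmapped or improperly paired, and counted the rest over exons of FlyBase genes (summarizeOverlaps, union mode), with no normalization and each replicate in its own column. The sources used here do not state whether counting used the strand, so reads of overlapping and antisense genes cannot be told apart. Of the symbols, 16847 were matched to FlyBase identifiers and positions.

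Genes were tested by the quasi-likelihood method of edgeR 4.0.16 (R 4.3.3) after TMM scaling and a filter on low counts (filterByExpr, minimum count 10 and minimum total 15). Adjusted p-values are Benjamini-Hochberg values over all genes tested, and calls are those under 0.05. The comparison with basal used the 2 libraries at 6 h and the 3 basal libraries, those with HS and 24 h all 11 control libraries of the set. The SE is the log2 fold change over the root of the F statistic. CPM are on 1 scale for the 23 brain libraries of the set. DESeq2 1.42.0, the test of the authors, and limma 3.58.1 gave alternatives, as did other scalings, filters, basal libraries, a replicate block and leaving out each library. An exact permutation of 2 against 3 libraries has 10 arrangements and a smallest two-sided p of 0.1, so none is given. Python 3.11.15 and matplotlib 3.10.9 made the promoter search and figures.

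The labels number the libraries as replicates, and the study describes them as biological replicates, each a pool of dissected brains. The 34 gene lists, 8 marker lists, comparisons and alternatives were chosen with earlier results of these data known. Named genes are the 15 largest rises and falls among calls whose mean count reached 100 in a group and whose libraries did not overlap, called list members, the Hsp70 genes, *Hsp68*, *DnaJ-1*, *stv*, *Hsf*, *Mettl3* and *Ythdc1*, and the 5 largest rises and falls of each other comparison. Other genes were chosen after their values were seen.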

Additional observations from a re-analysis of the deposited data

Results flagged for a closer look

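*DnaJ-1*, the J-domain partner of Hsp70, had changes of opposite sign in the genotypes. It was picked from the named genes because its 6 h and basal libraries did not overlap in either genotype, in opposite directions. Control brains had 102.8 and 103.8 CPM at 6 h, against 83.9, 83.1 and 77.4 CPM in basal (log2 fold change 0.35), so each recovery library was above each basal library. That was also true of 23.4% of all genes tested, and this control change did not pass the test. *Mettl3* RNAi brains had 79.8, 86.6 and 91.2 CPM at 6 h, against 314.8, 118 and 145 CPM in basal (log2 fold change -1.17), so each recovery library was below each basal library. The difference of the changes was -1.47 on the log2 scale (*Mettl3* RNAi minus control), with an adjusted p of 0.467 (edgeR), which does not pass the threshold. The gap within *Mettl3* RNAi is largest against its basal replicate 1, a library with a high Hsp70 sum.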

How the results depend on the processing

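Control 6 h against basal gave 692 calls (392 higher, 300 lower). DESeq2 gave 1119 (491 and 628), no filter on low counts 1235 (563 and 672), all 6 basal libraries 449 (375 and 74), the fit of 11 control libraries 1688 (655 and 1033), DESeq2 size factors 655 (337 and 318) and library size alone 976 (793 and 183). Leaving out 1 library gave 122 to 692 calls, with 250 higher and 442 lower without basal replicate 3. Of 147 called genes that are named, 31 passed under every alternative that keeps all libraries and 17 in every fit. Against all 6 basal libraries the log2 fold change was -1.61 for *AttA*, -1.64 for *AttB*, -1.21 for *BomBc1*, -0.67 for *BomS1* and -0.0137 for *vri*, all of the opposite sign, and the causes were not tested. Also there, the proteasome list had no call (median 0.44), and all 7 Hsp70 family genes were higher (median 4.01).

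The replicate number as a block gave 1608 calls for 6 h against basal, 695 against 24 h (1075 without the block), 0 in *Mettl3* RNAi (206 without) and 1 in the genotype difference (0 without). Equal numbers do not show that libraries are paired, since residuals of libraries with the same number correlated at 0.022 and 0.099, with only 2 pairs, and a block by the numbers of the study's table of mapped reads gave 821.

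Leaving out 1 library gave 4503 to 5224 calls against HS and 366 to 695 against 24 h. In *Mettl3* RNAi, DESeq2 gave 1219, library size alone 726 and no filter 49, and leaving out 1 library 0 to 2659. For the genotype difference DESeq2 gave 66 (6 and 60), and leaving out 1 library 0 to 881. In the second set, HS against basal gave 6210 calls with library size alone (378 higher, 5832 lower, against 1547 and 2578) and 2920 to 3732 without 1 library. The head m6A list had 721 genes with DESeq2 and none without the RNA pool as a block. The 2 libraries at 6 h limit the precision of every fold change given here.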

Other observations

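Low transcripts with no list of their own also rose in both genotypes. *CG4020*, which carries a fatty acyl-CoA reductase domain, had 13.6 and 13.3 CPM in control brains at 6 h, against 1.02, 0.982 and 0.695 CPM in basal, and 11.9, 9.07 and 8.28 CPM in *Mettl3* RNAi brains at 6 h, against 0.875, 0.459 and 0.794 CPM in their basal libraries. *CG1143* had 13.4 and 11.7 CPM in control brains at 6 h, against 1.25, 1.93 and 1.80 CPM in basal, and 9.79, 9.55 and 8.92 CPM in *Mettl3* RNAi brains at 6 h, against 0.709, 0.953 and 0.756 CPM in their basal libraries. Both were among the 5 largest rises of *Mettl3* RNAi among calls whose mean count reached 100 in a group and whose libraries did not overlap. In control brains after HS *CG4020* had 0.746 to 1.52 CPM and *CG1143* 0.675 to 1.24 CPM, so neither was raised directly after HS.

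Genes of protein entry into the ER and of vesicle coats were put in a list after the calls were seen, and are therefore a description. All 27 had positive log2 fold changes at 6 h (median 0.31, against 0.03 over all genes) and 10 were higher, among them *OstDelta* (0.52) and *Stt3B* (0.42) of the oligosaccharyl transferase, *TRAM* (0.50) of the translocon and *alphaCOP* (0.42) and *Sec31* (0.39) of the coats. None was called without 6 h replicate 1. Of 8 genes of p97 and proteasome assembly, also listed after the calls were seen, 3 were higher, and *TER94*, which encodes p97, the ATPase that unfolds tagged proteins for the proteasome, had 248 and 224 CPM at 6 h, against 173, 164 and 155 CPM in basal (log2 fold change 0.53).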
